A study of Mus musculus with 5 samples.

Results

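Sox4 encodes an HMG-box transcription factor, and its transcript was followed through 5 single-cell libraries of haematopoietic progenitors from mouse bone marrow. It is 1 of the 55450 genes in the deposited feature lists. It was picked out because its UMI level was lower in granulocyte-monocyte progenitors (GMP) than in the other sorted populations, and because other genes rose and fell with it among GMP cells. Both of these patterns, and the differences of Sox4 between classes of GMP cells that go with the second, are therefore given as values, with no test. A UMI (unique molecular identifier) marks 1 captured RNA molecule, and levels are UMI counts or CPM, the count scaled to 1000000 UMIs a library.

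All libraries came from wild-type Balb/C mice aged 8 to 12 weeks, and bone marrow was enriched for c-Kit on magnetic columns before sorting. The lineage cocktail held antibodies to Ter-119, Gr-1, CD11b, B220, CD4 and CD8, and DAPI marked dead cells. Lymphoid-primed multipotent progenitors (LMPP) were sorted as Lin-, c-Kit+, Sca-1+, CD34+ and Flt3+, and gave 1 library. Common myeloid progenitors (CMP) were Sca-1-, c-Kit+, CD34+ with low CD16/32, and gave 1 library, whereas GMP differed by high CD16/32 and gave 3 libraries. The labels call the GMP libraries biological replicates without naming separate animals, so p-values measure the spread between these libraries, which may be technical. No label says whether animals were pooled.

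SOX proteins bind the minor groove of DNA through their HMG box and bend it, usually beside a partner factor. Sox4 forms the SoxC group with Sox11 and Sox12. It is needed for early B lymphocyte development, is activated by TGF-beta in several tissues, and is a recurrent retroviral integration site in mouse myeloid leukaemia. The myeloid factor C/EBP-alpha has been reported to repress it, and Sox4 stays high in leukaemias that lack C/EBP-alpha function.

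Sox4 (ENSMUSG00000076431) lies on the minus strand of mouse chromosome 13 at chr13:28948919-28953713 in GRCm38/mm10. GENCODE vM21 gives it 1 exon of 4795 bases, with a coding region of 1320 bases (440 codons) at 28951702 to 28953021. The 236 bases that precede the annotated start, at chr13:28953714-28953949 on the minus strand of GRCm38.p6, are printed from RefSeq because they hold the sequence next to which transcription of the followed RNA begins. Capitals mark CCAAT on either strand.
Sox4 upstream sequence: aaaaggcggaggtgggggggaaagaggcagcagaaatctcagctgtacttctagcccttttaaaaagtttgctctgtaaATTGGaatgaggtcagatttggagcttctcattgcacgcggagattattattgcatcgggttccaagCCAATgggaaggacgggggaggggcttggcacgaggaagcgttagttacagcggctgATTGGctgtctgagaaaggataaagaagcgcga
The window held CCAAT 3 times, once as printed and 2 times on the other strand (read as ATTGG), at 90, 157 and 33 bases before the start. This pentamer was present in 32.7% of 32841 mouse promoters cut to the same window. The letters GAGGAAG, an ETS-factor core, occurred once at 58 bases before the start and in 9.79% of the promoters. On neither strand did the window hold the TATA box letters TATAAA (11.9% of promoters) or the GC box letters GGGCGG (30.8%). It also lacked the SOX core AACAAT (9.13%), the C/EBP form TTGCNNAAT (2.02%) and the AP-1 form TGANTCA (6.50%). A match or its lack describes these letters in this window only. Its GC content was 50% beside a median of 52.1%.

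A long non-coding RNA on the opposite strand, Gm26735, has an exon of 2616 bases that lies wholly within the 3' untranslated region of Sox4 (28949056 to 28951671). The libraries read 3' ends, and the strand setting of the counting is not given in the sources used here, so reads from this stretch cannot be assigned with certainty. The level counted for Gm26735 was 35.1 CPM in LMPP, 11.7 in CMP and 3.99, 10.1 and 10.6 in GMP 1 to 3. Each of these was far below the Sox4 level of the same library.

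The libraries held 7389 to 9993 barcodes, of which 6880 to 9016 were kept after filters on quality and doublets. Median depth rose from 9211 UMIs a cell in LMPP and 10040.5 in CMP to 10719, 12776 and 15088 in GMP 1 to 3, and the median mitochondrial share was 0.754% to 1.42%. Pairs of libraries shared 11 to 27 cell barcodes. The summed level of 6 granulo-monocytic markers was 31756 to 35581 CPM in GMP, 3736 in CMP and 2670 in LMPP, and that of 10 stem and multipotent markers was 1206 CPM in LMPP, 319.97 in CMP and 33.2 to 42.1 in GMP. The LMPP library also held 100 neutrophil-like cells, and the summed neutrophil marker level was 2252 CPM there against 127 in CMP and 655 to 753 in GMP.

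Sox4 was read in most LMPP and CMP cells and at a lower level in GMP. Its summed count was 47177 UMIs in LMPP, 58758 in CMP, and 21692, 23952 and 24857 in GMP 1 to 3. Scaled to library totals these were 568 CPM (95% Poisson interval 563 to 573) in LMPP and 735 CPM (729 to 741) in CMP. GMP gave 223 (220 to 226), 202 (200 to 205) and 218 CPM (216 to 221). The intervals cover counting error only, and none of the GMP intervals reached those of LMPP or CMP. The GMP mean was 215 ± 11.1 CPM (SD, n = 3), so that LMPP stood 2.65-fold and CMP 3.43-fold above it. CMP exceeded LMPP 1.30-fold (counting interval 1.28 to 1.31), with 1 library on each side and no replicate check.

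The size of the step from LMPP depended on the scaling. With TMM factors, which balance the bulk of genes between libraries, Sox4 was 421 CPM in LMPP, 676 in CMP and 262, 228 and 242 in GMP. On that scale the fitted log2 difference was -1.47 (SE 0.13) for GMP minus CMP and -0.79 (SE 0.13) for GMP minus LMPP. On library totals the same differences were -1.78 and -1.40. Library totals also moved the median of all genes to -0.33 against CMP and -0.69 against LMPP, beside -0.04 and -0.09 with TMM. Sox4 was lower in GMP on every scale tried. All comparisons of GMP with CMP and with LMPP share the 3 GMP libraries.

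Per cell, the mean was 6.28 Sox4 UMIs in LMPP, 8.54 in CMP and 2.57, 2.66 and 3.39 in GMP, with medians of 4, 6, 1, 2 and 2. The most strongly labelled cell held 73 UMIs in LMPP, 77 in CMP and 35, 33 and 39 in GMP. Since depth differed, each cell was also thinned to 4000 UMIs. Then 78.9% of LMPP and 84.5% of CMP cells held a Sox4 UMI, against 46.7%, 45.7% and 47.9% of GMP cells. Without thinning the shares were 91.2%, 94.9%, 70.6%, 74.6% and 80.1%. The thinned mean was 2.30 UMIs in LMPP, 3.09 in CMP and 0.930, 0.874 and 0.979 in GMP. Cells with 5 or more Sox4 UMIs made up 13.7% of LMPP and 23.9% of CMP, but 3.17%, 2.70% and 3.55% of GMP. The 3 GMP libraries lay close together on each of these measures after thinning, and their unthinned shares ran in the order of their depth.

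**Figure D1:**
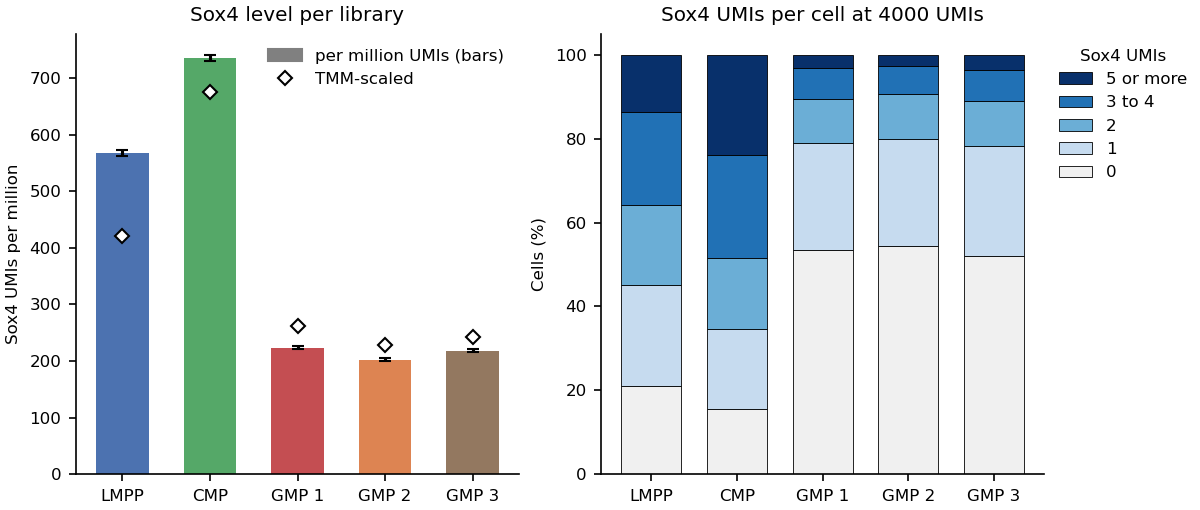
Left, Sox4 level in CPM in each library (bars, with 95% Poisson intervals) and the TMM-scaled value (diamonds); right, the percentage of cells with 0, 1, 2, 3 to 4 and 5 or more Sox4 UMIs after thinning to 4000 UMIs. The GMP bars lie between 202 and 223 CPM, below LMPP at 568 and CMP at 735, and cells with no Sox4 UMI make up 52.1% to 54.3% of GMP.

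A sum over cells cannot tell fewer Sox4-positive cells from less Sox4 RNA in each, so the cells were clustered without Sox4 and named by fixed markers. The names are rebuilt here from markers and carry the ending "-like", since no deposited annotation was used. Within GMP, the lowest class was neutrophil-like cells, led there by S100a9, S100a8 and Wfdc21, at 44.7, 43.4 and 44.4 CPM in GMP 1 to 3. Of 10 neutrophil markers, 5, 5 and 6 were raised in these cells over the rest of their library, while the secondary granule genes Ngp and Camp stayed at or below 1.64 CPM. The 100 LMPP cells of this class had 9 of 10 raised, with Ngp at 13589 and Camp at 14470 CPM, so the name covers different cells in LMPP and GMP. Granulo-monocytic-like cells, marked by the granule proteases Elane, Prtn3 and Ctsg, had 132, 137 and 154 CPM. Monocyte-like cells, marked by Irf8, F13a1 and Ly86, had 168, 151 and 178 CPM. These last 2 ranges overlap.

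Eosinophil-like cells, marked by the granule protein genes Prg2, Epx and Prg3, had 455, 311 and 544 CPM. The highest class was basophil and mast cell-like, at 981, 752 and 946 CPM, above every other GMP class of at least 100 cells a library and above the LMPP and CMP libraries as a whole. It was made of a cluster led by Prss34, Ms4a2 and Mcpt8, at 665 ± 74.8 CPM (SD, n = 3), and a cluster led by Gzmb and Cma1, at 1356 ± 154 CPM. The markers Mcpt8, Ms4a2, Cpa3, Fcer1a and Gata2 were raised in both. In every GMP library the second cluster exceeded the first. Its cells were shallow, with median depths of 3408, 3783 and 4372 UMIs against 6996, 8505.5 and 8946.5 in the first.

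Some GMP clusters remained unnamed. Cluster 7, led by Cebpe, Hdc and Mpo, had 366 ± 12.2 CPM of Sox4, and cluster 8, led by mitotic genes such as Nusap1 and Kif11, had 465 ± 31.3 CPM (SD, n = 3 for both). Cluster 15, led by the inflammatory genes Cxcl10, C3 and Cxcl2, had 323 ± 90.4 CPM. It combined low depth (medians of 1867.5 to 4660 UMIs) with a mitochondrial share of 4.16% to 6.37%, where the other GMP classes had 0.666% to 1.47%. From low to high the GMP classes ran neutrophil, granulo-monocytic, monocyte, cluster 15, cluster 7, eosinophil, cluster 8, basophil and mast cell. The ranges of cluster 15, cluster 7 and the eosinophil class overlapped, as did those of the eosinophil class and cluster 8.

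Thinned shares of positive cells gave a like order. A Sox4 UMI was seen in 15.3% ± 0.908 of neutrophil-like cells (SD, n = 3), which had the lowest share and served as the low reference at a median depth of 10816 to 16061 UMIs before thinning. The share was 39.5% ± 2.28 in granulo-monocytic-like and 42.0% ± 1.99 in monocyte-like cells, whose median depths were 10675 to 15900 UMIs. It reached 86.5% ± 1.79 in basophil and mast cell-like cells, whose median depth before thinning was lower, at 5142.5 to 6521 UMIs. These shares cover only cells with at least 4000 UMIs. The median depth of the Gzmb-led cluster was below that limit in GMP 1 and 2, so most of its cells there were left out. The share due to free Sox4 RNA was not measured.

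**Figure D2:**
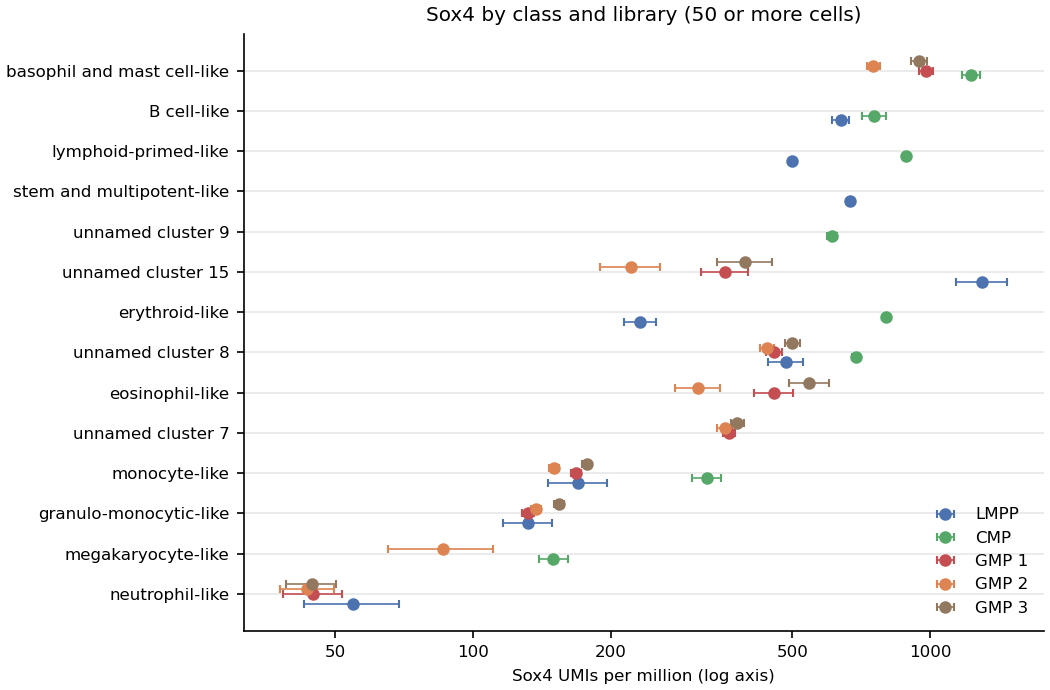
Sox4 level in CPM (log axis) for each class and library with at least 50 cells, with 95% Poisson intervals that cover counting error only. Within GMP the neutrophil-like sums lie near 44 CPM and the basophil and mast cell-like sums between 752 and 981 CPM, and the CMP sum of the latter class is the highest among named classes at 1229 CPM.

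For the classes with at least 100 cells in each GMP library, the difference of Sox4 was fitted in edgeR, with library as a block, on UMIs that the clustering had not used. The markers that define these classes are among the genes that follow Sox4 in the same cells, so the fitted differences describe size only. Each is followed by the share of the 10366 fitted genes that passed in the same direction (quasi-likelihood test, Benjamini-Hochberg adjustment over all genes of all 10 class pairs). Basophil and mast cell-like cells exceeded neutrophil-like cells by 4.03 on the log2 scale (SE 0.09; 26.6% of genes), higher in 3 of 3 libraries. They exceeded granulo-monocytic-like cells by 2.42 (SE 0.06; 29.2%) and monocyte-like cells by 2.28 (SE 0.06; 27.6%). They stood 1.19 above eosinophil-like cells (SE 0.09; 14.8%). The SEs are those of the blocked fit, and over the 10 pairs they were 0.15 to 0.18 without the block.

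Eosinophil-like cells in turn stood above granulo-monocytic-like cells by 1.22 (SE 0.10; 18.0%), monocyte-like cells by 1.09 (17.6%) and neutrophil-like cells by 2.84 (18.8%). Granulo-monocytic-like and monocyte-like cells were above neutrophil-like cells by 1.62 (SE 0.10; 7.29%) and 1.75 (SE 0.10; 16.2%). Sox4 was thus lower in neutrophil-like cells than in each of the other 4 classes. That class depended on the clustering. At a resolution of 0.5 the neutrophil-like cluster held 0, 1 and 0 cells of GMP 1 to 3. It held 0 in each with doublet calls kept, and 0, 1 and 2 with no centring of the GMP libraries. With the clusters of the basophil and mast cell-like class apart, the Gzmb-led cluster exceeded the Prss34-led one by 0.91 (SE 0.07). This split was made after the clusters were seen.

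The smallest difference depended on the clustering. Granulo-monocytic-like minus monocyte-like cells gave -0.13 (SE 0.05), where 20.2% of genes were lower. The difference was 0.067 at a clustering resolution of 0.5 and -0.46 (SE 0.05) at a resolution of 2. These fits and the correlations below used the same GMP cells and are not independent of each other.

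The classes contributed unequally to the GMP total. Basophil and mast cell-like cells were 6.56% ± 1.33 of GMP cells and held 13.9% ± 2.65 of the Sox4 UMIs (SD, n = 3). Cluster 8 held 12.2% ± 1.21 of the Sox4 UMIs in 5.02% ± 0.745 of cells, and cluster 7 held 14.3% ± 2.87 in 7.79% ± 1.42. Granulo-monocytic-like cells were 36.1% ± 1.27 of cells and held 24.9% ± 2.66 of the UMIs. Without basophil and mast cell-like cells the GMP level was 191 ± 12.05 CPM, and over granulo-monocytic-, monocyte- and neutrophil-like cells alone it was 147 ± 10.6 CPM. Leaving out the classes with the most Sox4 lowers the level by construction.

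In LMPP, stem and multipotent-like cells (led by Hlf and the homeobox gene Hoxa9) made up 69.1% of cells and had 667 CPM of Sox4 (interval 659 to 674). Lymphoid-primed-like cells, marked by Dntt and Flt3, had 500 CPM (491 to 509) in LMPP and 887 CPM (876 to 899) in CMP. The LMPP cells of this class came mostly from a cluster led by mitotic genes and the CMP cells from another, so the libraries differ in which cells carry the name. Erythroid-like cells had 232 CPM (214 to 252) in LMPP and 803 CPM (789 to 816) in CMP, in different mixes of their clusters. Cluster 11, led by Car1 and Phlda1, had 729 CPM over 47 LMPP cells and 962 CPM over 1262 CMP cells, and cluster 18, led by Car1 and Ermap, had 117 CPM over 58 LMPP cells and 424 CPM over 278 CMP cells. Basophil and mast cell-like cells of CMP had 1229 CPM (1174 to 1286), whereas CMP megakaryocyte-like cells had 150 CPM (139 to 161). Monocyte-like cells had 170 CPM (146 to 197) in LMPP and 324 CPM (302 to 348) in CMP, granulo-monocytic-like cells of LMPP had 132 CPM (116 to 149), and neutrophil-like cells of LMPP had 54.6 CPM (42.6 to 68.8). The counting intervals of these last 3 LMPP classes included at least 1 GMP value of the same class.

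Within GMP, cells with more Sox4 carried more basophil, mast cell and immediate early transcripts and fewer granule protease transcripts. Of 3983 genes seen in at least 10% of thinned GMP cells, 126 had a mean Pearson r with Sox4 of at least 0.1 and the same sign in all 3 libraries, and 113 had r of -0.1 or lower. This is 3.16% and 2.84% of the genes, and the median r was 0.01. The correlations are over the 7797, 8643 and 7099 cells of GMP 1 to 3 with at least 4000 UMIs, and all cells of a library share its preparation and its free RNA. They describe these libraries and carry no p.

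Cpa3, a mast cell carboxypeptidase, had the highest mean r with Sox4 (0.353, 0.302 and 0.331 in GMP 1 to 3). Its thinned mean rose from 0.193 ± 0.05 UMIs in cells without Sox4 to 1.997 ± 0.1301 in cells with 3 or more Sox4 UMIs (SD over 3 libraries). The AP-1 subunit gene Jun followed with r of 0.334, 0.301 and 0.310, and its mean went from 3.06 ± 0.490 to 8.57 ± 1.67 UMIs. Jund, another AP-1 subunit gene, had a mean r of 0.295, and the immediate early genes Ier3 and Egr1 had 0.288 and 0.274. The others among the top 10 were Ifitm1, an interferon-induced membrane protein gene (0.304), the G-protein regulator gene Rgs1 (0.299), the apolipoprotein gene Apoe (0.277), the LIM-only cofactor gene Lmo4 (0.275) and the translation elongation factor gene Eef1a1 (0.248). Apoe went from 0.217 ± 0.0658 to 1.35 ± 0.25 UMIs a cell over the same Sox4 range.

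In the other direction, the neutrophil serine protease genes Prtn3 and Elane had mean r of -0.455 and -0.451. Elane went from 55.4 ± 6.41 UMIs in cells without Sox4 to 20.4 ± 2.27 in cells with 3 or more, and Prtn3 from 45.2 ± 3.22 to 21.9 ± 1.997 (SD over 3 libraries). Ms4a3, a membrane gene that marks granulo-monocytic progenitors, had -0.322 and the protease gene Ctsg -0.265. The actin regulators Dstn and Tmsb4x had -0.306 and -0.304. The remaining genes were the glutathione peroxidase gene Gpx1 (-0.253), the metallothionein gene Mt1 (-0.244), the translocon gene Sec61b (-0.241) and the proton pump gene Atp6v0c (-0.238).

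**Figure D3:**
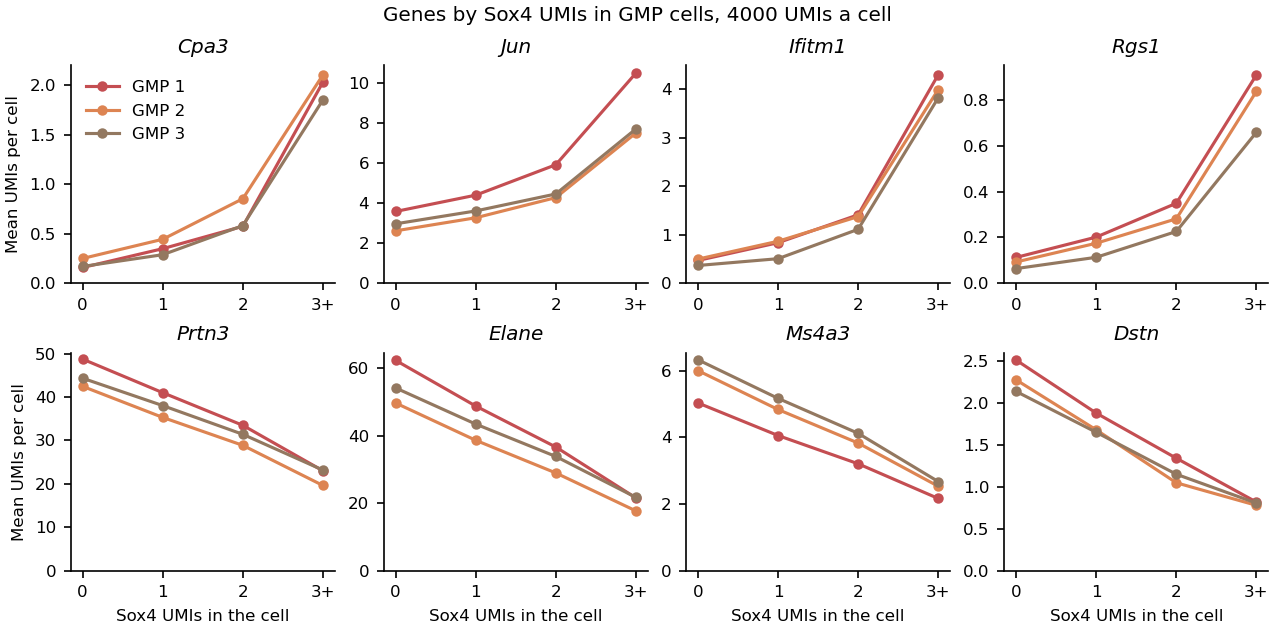
Mean UMIs per cell of 8 genes in GMP cells thinned to 4000 UMIs, grouped by the number of Sox4 UMIs in the cell (0, 1, 2, 3 or more), with 1 line per GMP library. Cpa3, Jun, Ifitm1 and Rgs1 rise and Prtn3, Elane, Ms4a3 and Dstn fall across the 4 groups in all 3 libraries.

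By list, 9 of 9 measured immediate early and heat shock genes were among the 126, with a median r of 0.23. None of the 22 measured S phase or 18 measured G2M genes was in either group, with median r of -0.0023 and -0.0015. All 6 granulo-monocytic markers and 3 of 4 measured neutrophil markers were among the 113. Only 2 of the 9 basophil and mast cell markers were measured, and both were among the 126. None of the 6 measured monocyte markers was in either group, nor was the 1 measured eosinophil marker. Over all genes 3.16% were among the 126 and 2.84% among the 113. The summed immediate early list went from 7.38 ± 1.26 UMIs in cells without Sox4 to 22.2 ± 4.56 in cells with 3 or more (SD over 3 libraries). The summed granulo-monocytic markers went from 151 ± 9.66 to 80.1 ± 8.24, and the basophil and mast cell markers from 0.927 ± 0.244 to 6.19 ± 0.397. The thinned Sox4 level of a cell had an r with its total UMIs before thinning of -0.096, -0.163 and -0.220 in GMP, 0.019 in LMPP and -0.091 in CMP. Cells rich in Sox4 were thus the shallower ones in GMP, and the part of depth beyond thinning was not tested.

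Fewer genes reached these limits within clusters. The clusters were formed from part of the same UMIs, and Cpa3, Elane and Ms4a3 were among their leading genes. Subtracting cluster means thus lowers r in part by construction. When each gene was taken as its deviation from the cluster mean in its library, 10 genes remained at r of 0.1 or higher and 15 at -0.1 or lower. Those with Sox4 included H2afy (0.164), a variant histone gene, Jun (0.142), Eef1a1 (0.133), Jund (0.122), Cd34, Ier3 (0.109), Zfp36l2, Pim1 and Eef2. Cpa3 fell to 0.084. Elane and Prtn3 kept -0.268 and -0.235, so cells of 1 cluster also differed in protease transcripts by Sox4. Apart from the 20 genes of the fixed rule, these genes are named after their values were seen.

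LMPP and CMP cells took no part in choosing the 20 genes. All 10 genes that rose with Sox4 in GMP had a positive r in LMPP and in CMP, where 60.9% and 49.8% of all 3983 genes did. All 10 that fell had a negative r in LMPP and 8 of 10 in CMP, where 39.1% and 50.2% of all genes did. As deviations from cluster means, 8 of the 10 rising genes were positive in LMPP and 10 of 10 in CMP, where 58.2% and 49.0% of all genes were. Of the falling genes, 9 of 10 were then negative in LMPP and 6 of 10 in CMP, where 41.8% and 51% of all genes were. Before that step the exceptions in CMP were Ctsg (0.031) and Gpx1 (0.051). Jun had r of 0.248 in LMPP and 0.244 in CMP, and Jund 0.237 and 0.208, whereas Cpa3 had 0.009 and 0.177 and Apoe 0.023 and 0.047. Elane had -0.162 and -0.090. The AP-1 genes tracked Sox4 in all 5 libraries, while the mast cell and apolipoprotein genes had r under 0.1 in LMPP. There Cpa3 had a UMI in only 1.47% of thinned cells and Apoe in 20.65%, against 98.65% for Jun. The r of Cpa3 in LMPP, and its sign, thus say little.

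**Figure D4:**
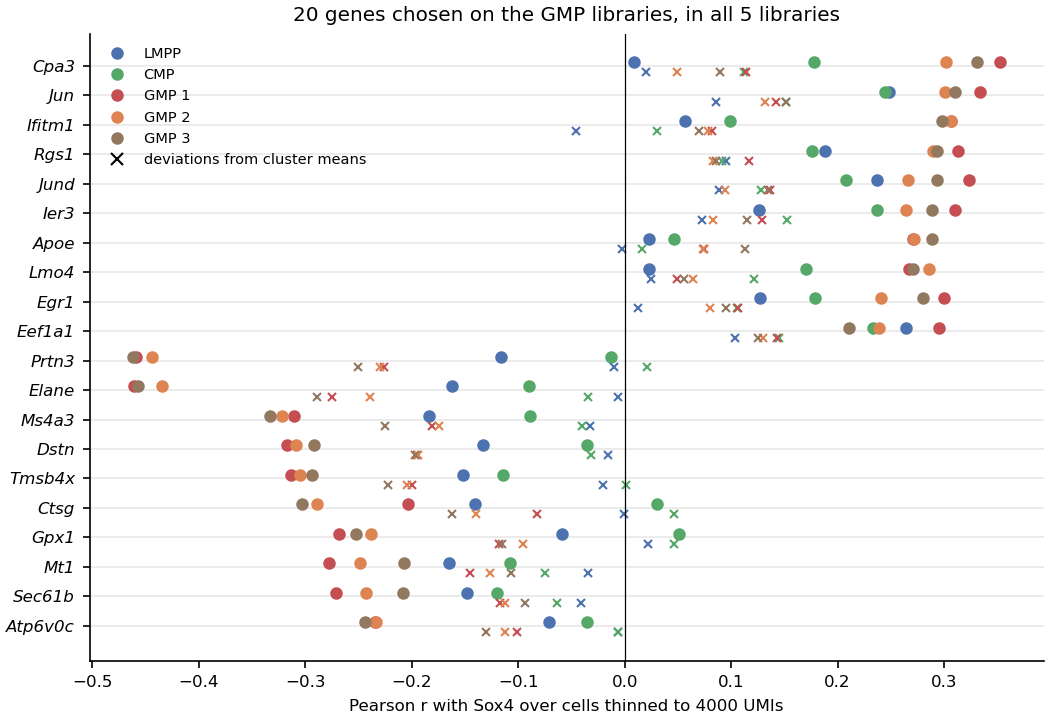
Pearson r with Sox4 over thinned cells for the 10 genes with the highest and the 10 with the lowest mean r in GMP, in each library (circles), and after the cluster mean was subtracted (crosses). The GMP circles were used to choose the genes, and the LMPP and CMP circles were not; Jun, Jund and Eef1a1 lie above 0.2 in all 5 libraries.

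The immediate early list also differed between classes in step with Sox4. Its summed level was 9742 ± 2871 CPM in basophil and mast cell-like, 3097 ± 579 in eosinophil-like, 2119 ± 424 in monocyte-like, 1569.8 ± 264 in granulo-monocytic-like and 1155 ± 157 CPM in neutrophil-like GMP cells (SD, n = 3). Other classes departed from this order. Cluster 15 had 4344 ± 953 CPM of the list, above eosinophil-like cells, but 323 CPM of Sox4 against 437 in that class. Megakaryocyte-like cells of GMP 2 had 3480 CPM of the list and 85.8 CPM of Sox4. Over 29 sums of a named class in a library, the log2 list level and the log2 Sox4 level had r = 0.869. With unnamed clusters included, r was 0.834 over 42 sums. Both describe sums that share libraries. Immediate early transcripts are known to be induced by tissue dissociation, and their part in the Sox4 pattern was not tested.

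Over the same 29 sums of 10 classes, the genes most like Sox4 among 7647 with at least 20 CPM in their highest sum were Zc3h12a (r = 0.953), an endoribonuclease gene, and Chd3 (0.944), a chromatin remodeller gene. Cdc42se2 (0.936), Tespa1 (0.933), Cd69 (0.928), Ube2r2 (0.928), Ric8a (0.926), Eef2k (0.919), the kinase gene Pim1 (0.917) and Cd1d1 (0.915) followed. Chd3 ranged from 6.15 to 211 CPM and Pim1 from 25.4 to 712 CPM over these sums. Zc3h12a stayed at or below 27.7 CPM.

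Of the other 19 SOX genes, 5 had enough UMIs to be tested between groups. By edgeR's quasi-likelihood test, 0 rose and 3 fell in GMP against CMP, where 13.6% of 19741 genes rose and 19.0% fell. Against LMPP 0 rose and 3 fell, where 25.7% of genes rose and 31.4% fell. Sox5 had 5.07 CPM in LMPP, 2.42 in CMP and 0.237, 0.321 and 0.316 in GMP. It was lower in GMP by a log2 difference of -2.67 (SE 0.25, adjusted p = 0.000249, edgeR) against CMP and -3.42 (SE 0.24, adjusted p = 3.4e-05, edgeR) against LMPP. Sox6, its SoxD relative, had 3.07, 4.61, 0.577, 0.599 and 0.501 CPM in the same order and fell by 2.70 and 1.81 on the log2 scale (adjusted p = 0.000157 and 0.000501, edgeR). All GMP values of both genes lay below LMPP and CMP.

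Sox12, the SoxC relative of Sox4, had 12.6 CPM in LMPP, 16.7 in CMP and 6.63, 9.86 and 9.77 in GMP. Its log2 difference was -0.63 (SE 0.21, adjusted p = 0.0524, edgeR) against CMP and 0.08 (SE 0.22, adjusted p = 0.765, edgeR) against LMPP, the latter -0.53 on library totals and -0.0020 without GMP replicate 2. The difference from CMP passed without GMP replicate 1, 2 or 3 (adjusted p = 0.0107, 0.0213 and 0.0166, edgeR). Sox11, the third SoxC gene, had at most 1 UMI in any library. Sox13 had 4.02 CPM in LMPP, 2.87 in CMP and 1.59, 1.51 and 1.75 in GMP, and passed against LMPP (-0.70, SE 0.22, adjusted p = 0.0258, edgeR) but not against CMP (-0.52, adjusted p = 0.112, edgeR). The former call was lost without GMP replicate 2 (adjusted p = 0.122) or 3 (adjusted p = 0.054, edgeR) and by DESeq2's Wald test (adjusted p = 0.0967). On library totals the difference from CMP was -0.82 and passed (adjusted p = 0.0244, edgeR). Sox8 rested on 28 UMIs in CMP and 3 to 6 in the other libraries. The remaining SOX genes had at most 7 UMIs in a library, and Sox14 and Sry had 0 in all 5.

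Factors reported to repress Sox4 or to act with it in myeloid cells moved in both directions. Of 8 genes tested, 4 rose and 3 fell in GMP against CMP (median log2 0.35, all genes -0.04; 13.6% of all genes rose and 19.0% fell). Against LMPP 3 rose and 3 fell (0.01, all genes -0.09; 25.7% rose and 31.4% fell). Cebpa, picked out after its values were seen as the reported repressor, had 14.3 CPM in LMPP, 26.5 in CMP and 31.2, 29.7 and 37.1 in GMP. It rose by 0.61 (SE 0.16, adjusted p = 0.0222, edgeR) against CMP and 1.80 (SE 0.17, adjusted p = 0.000128, edgeR) against LMPP, with adjusted p = 0.198 against CMP on library totals. Spi1, the gene of the myeloid factor PU.1, had 94.3, 149, 195, 157 and 172 CPM and rose by 0.54 and 1.503. Myb had 293, 250, 242, 340 and 346 CPM. Its fitted rise of 0.61 against CMP (adjusted p = 0.0494, edgeR) came with 1 of 3 GMP libraries below CMP on library totals, and the call was lost without GMP replicate 2 (adjusted p = 0.117, edgeR). On library totals neither Spi1 nor Myb passed against CMP (adjusted p = 0.266 and 0.285, edgeR). The stem cell factor genes fell. Mecom had 107, 25.7, 1.89, 2.34 and 1.86 CPM (log2 -3.35 against CMP and -5.09 against LMPP), and Meis1 had 214, 80.0, 8.65, 11.97 and 10.1 CPM (-2.66 against CMP).

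Within GMP the same factors also split by class. Between basophil and mast cell-like and granulo-monocytic-like cells, where 29.2% of genes were higher and 26.4% lower in the former, 5 of 8 were higher and 3 lower. Cebpa was among the higher genes, by 0.70 on the log2 scale (SE 0.10). The 3 lower genes were Gfi1 (-1.62, SE 0.19), Spi1 (-0.48, SE 0.07) and Myb (-0.36, SE 0.06). The part of these factors in the Sox4 level was not tested. Sox5 and Sox6 were higher in basophil and mast cell-like cells by 4.37 (SE 0.41) and 2.90 (SE 0.41) on the log2 scale, as Sox4 was. Both rest on few UMIs. Over all cells of GMP 1 to 3, Sox5 had 23, 38 and 36 UMIs and Sox6 had 56, 71 and 57. Sox12 did not pass (-0.11, adjusted p = 0.72, edgeR). Of the TGF-beta list, 15 of 17 tested genes were higher and 0 lower, and of the immediate early list 11 of 13 were higher and 0 lower. Wnt and TCF genes split 6 to 0 of 16, and p53 pathway genes 7 to 1 of 11. S phase genes went the other way, with 2 of 24 higher and 13 lower.

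Among proteins that bind, modify or stabilise Sox4, 1 of 11 rose and 4 fell against CMP, and 2 rose and 5 fell against LMPP (median log2 -0.33 and -0.19). Over all genes 13.6% rose and 19.0% fell against CMP, and 25.7% rose and 31.4% fell against LMPP. Syndecan genes led the falls: Sdc4 had 21.5 CPM in LMPP, 5.72 in CMP and 0.165, 0.0507 and 0.0527 in GMP, and Sdc1 had 8.74, 3.80, 0.247, 0.160 and 0.255 CPM. Trp53, the gene of p53, had 168, 203, 99.5, 101 and 102 CPM and fell by 0.71 against CMP (SE 0.12, adjusted p = 0.00307, edgeR). Of 7 reported target genes tested, 0 rose and 3 fell against CMP, and 1 rose and 3 fell against LMPP. Tead2 had 3.84 CPM in LMPP, 1.76 in CMP and 0.124, 0.279 and 0.263 in GMP. Rag1, a recombinase gene of lymphocytes, had 3.02 CPM in LMPP and 2.42 in CMP and was at 0, 0 and 0.0176 CPM in GMP.

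Of 24 TGF-beta genes tested, 0 rose and 12 fell against CMP (median log2 -0.63), where 13.6% of all genes rose and 19.0% fell, and the number that fell was 9 to 15 over the alternatives. Against LMPP 2 rose and 15 fell (-0.77), where 25.7% of all genes rose and 31.4% fell. The inhibitory Smad7 had 328 CPM in LMPP, 213 in CMP and 26.6, 19.3 and 18.0 in GMP, a log2 difference of -3.01 (SE 0.21, adjusted p = 7.3e-05, edgeR) against CMP and -3.32 (SE 0.21, adjusted p = 2.2e-05, edgeR) against LMPP. Tgfb1, the ligand, had 148, 337, 209, 173 and 186 CPM, lower in GMP than in CMP by -0.52 and higher than in LMPP by 0.97. Its call against CMP was lost without GMP replicate 2 or 3 (adjusted p = 0.244 and 0.0928, edgeR), and that against LMPP on library totals (0.0633). Receptor gene Tgfbr3 fell by 3.39 against CMP, and Skil, a SMAD co-repressor gene, by 2.69 against LMPP.

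Of 31 Wnt and TCF genes tested, 0 rose and 11 fell against CMP (median log2 -0.38), where 13.6% of all genes rose and 19.0% fell. Against LMPP 1 rose and 14 fell (-0.53), where 25.7% rose and 31.4% fell. Tcf7l2, a partner of beta-catenin, had 40.7, 14.7, 2.29, 2.85 and 3.01 CPM in LMPP, CMP and GMP 1 to 3 and fell by 2.12 and 3.28. Of 18 p53 pathway genes, 2 rose and 8 fell against CMP (-0.48), and 3 rose and 6 fell against LMPP (-0.17), the last of which is near the 31.4% of all genes. The antiproliferative gene Btg2 had 298, 276, 45.1, 38.4 and 50.98 CPM. The death-promoting gene Bax had 93.6, 126, 163, 155 and 145 CPM and rose by 0.60 and 1.34, the first of which was lost on library totals.

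Immediate early and heat shock genes, which followed Sox4 within GMP, were also lower in GMP as a whole. Of 15 tested, 0 rose and 12 fell against CMP (median log2 -1.60), and 2 rose and 9 fell against LMPP (-1.34). The shares of all genes that rose and fell were 13.6% and 19.0% against CMP, and 25.7% and 31.4% against LMPP. Jun had 3182 CPM in LMPP, 2725 in CMP and 1154, 799 and 898 in GMP (-1.21 against CMP, SE 0.22, adjusted p = 0.00465, edgeR). Jund had 1757, 1525, 495, 321 and 373 CPM (-1.63, SE 0.23, adjusted p = 0.00154, edgeR). Nr4a1, an orphan receptor gene, had 51.5, 79.7, 3.23, 2.14 and 2.02 CPM. All 3 genes were lower in each GMP library than in LMPP and CMP.

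Markers of other lineages moved with these comparisons. Against CMP, 0 of 7 lymphoid-primed markers rose and 7 fell, 0 of 8 erythroid markers rose and 8 fell, and 0 of 7 megakaryocyte markers rose and 6 fell. Of 9 basophil and mast cell markers 5 rose and 1 fell, and 5 of 5 eosinophil markers rose. Against LMPP, 10 of 10 stem and multipotent markers and 7 of 7 lymphoid-primed markers fell. Over all genes 13.6% rose and 19.0% fell against CMP, and 31.4% fell against LMPP. The part of these lineages in the group difference of Sox4 was not tested.

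Of 44 lineage transcription factor genes, 7 rose and 27 fell against CMP (median log2 -0.96), where 13.6% of all genes rose and 19.0% fell. Against LMPP 8 rose and 26 fell (-0.81), where 25.7% rose and 31.4% fell. Cebpe, the factor of terminal granulocyte differentiation, rose from 6.096 CPM in CMP to 136, 145 and 164 in GMP (log2 4.90, SE 0.19, adjusted p = 8.8e-06, edgeR), and Lmo2 fell by 1.07 against CMP and 1.66 against LMPP. Cell cycle lists depended on the scaling. Of 24 S phase genes, 6 rose and 1 fell against CMP and 15 rose and 0 fell against LMPP with TMM, but 3 rose and 3 fell, and 3 rose and 6 fell, on library totals. Of 24 G2M genes, 9 rose and 0 fell against CMP and 11 rose and 2 fell against LMPP with TMM, and 2 rose and 0 fell, and 3 rose and 11 fell, on library totals. On that scale 7.33% of all genes rose and 30.1% fell against CMP, and 11.0% rose and 51.7% fell against LMPP.

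**Figure D5:**
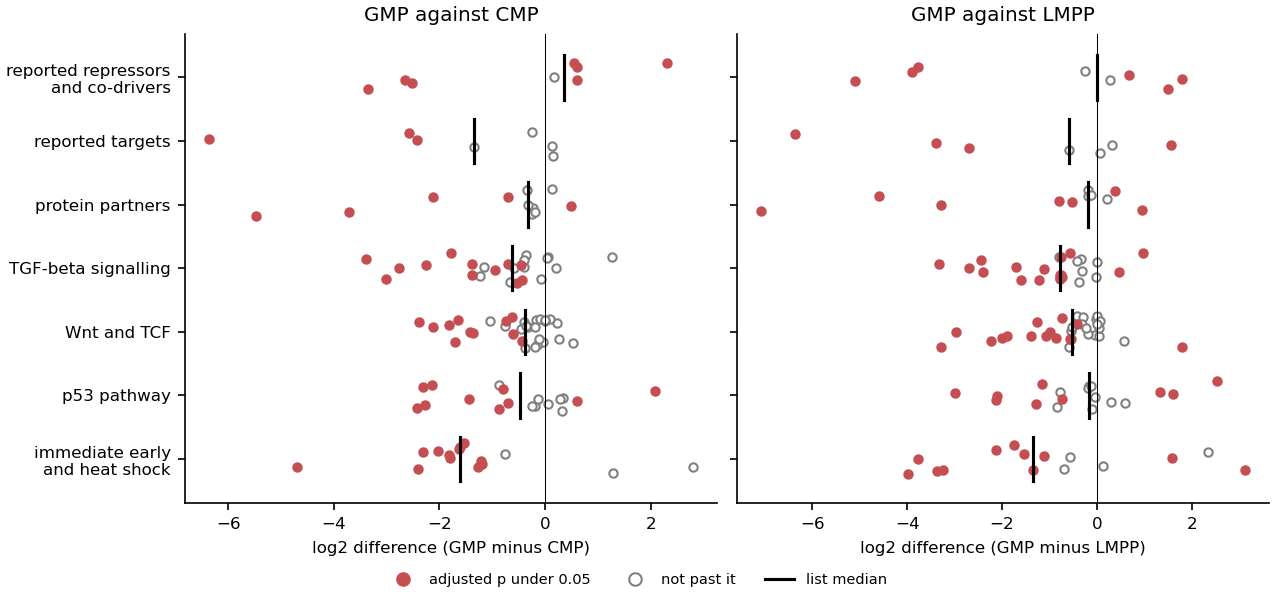
Log2 difference of each tested gene of 7 lists, Sox4 left out, for GMP minus CMP (left) and GMP minus LMPP (right); filled points passed edgeR's test at an adjusted p under 0.05, open points did not, and black bars are list medians. Immediate early and heat shock genes have medians of -1.60 and -1.34, and reported repressors and co-drivers have 0.35 and 0.01.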

How the data were processed

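The deposited values are UMI counts per gene and cell. Cell Ranger 6.1.1 stands in their headers (per the file headers), while the submitters' processing notes name Cell Ranger 3.1.0, Seurat 3.1.1 and mm10. Cells were kept with at least 500 genes, 1000 UMIs and at most 10% mitochondrial UMIs, and simulated-doublet scores removed 0.8% of barcodes per 1000 barcodes. Cells of all libraries were clustered without Sox4 on a random share of their UMIs (Leiden, resolution 1, 2000 variable genes, 30 components, 20 neighbours; leidenalg 0.10.2). GMP libraries were brought to a common mean per gene first, a choice made after seeing the data. Without this centring, granulo-monocytic-like cells split by library. A cluster of them held 2337, 89 and 28 cells of GMP 1 to 3, and another held 143, 2425 and 2155. The Prss34-led cluster then held 275, 434 and 171. A cluster took the name of a marker list with at least 3 raised markers (1.5-fold, 20 CPM). Differences between classes were fitted on the other UMIs. Thinning drew 4000 UMIs a cell (also 2000 and 8000) and left out shallower cells, and r used log2(UMI + 1). Sums per library over kept cells were fitted for all 5 libraries with edgeR 4.0.16 (TMM, filterByExpr, prior count 2, quasi-likelihood test, Benjamini-Hochberg at 0.05). Scripts were tested on simulated data.

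The members and gene lists were chosen with earlier results of these data known. Named genes are the 10 highest and 10 lowest by mean r, the 10 most like Sox4 over class sums of at least 50 cells, all detected SOX genes, and of each list the 2 largest passing changes and the 2 highest levels that passed. Alternatives were DESeq2 1.42.0, other scalings, filters, cells, clusterings and left-out libraries. Class sums of 1 library come from the same preparation, so the library was a block there. Groups were taken from the labels, and no sample was left out. Some single genes are not reported here.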

Additional observations from a re-analysis of the deposited data

How the results depend on the processing

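Counts of genes that passed between groups stayed within 1.5 times of the reported 6445 (GMP against CMP) and 11272 (against LMPP) under every alternative run: 5121 to 9403 and 9883 to 13302 with 1 GMP library left out, 5459 and 9010 by DESeq2. The split did not: it was 2687 higher and 3758 lower against CMP and 5076 and 6196 against LMPP with TMM, but 1448 and 5943, and 2178 and 10211, on library totals. Among single named genes, Sox12 against LMPP (0.08) turned to -0.53 on library totals and ran from -0.0020 to 0.22 with 1 library left out. The cause was not tested. Sox8 against CMP lost its call by DESeq2 (adjusted p = 0.13).

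The log2 ratio of Sox4 in LMPP over GMP was 1.40 on library totals, 0.79 with TMM, 1.17 as the mean over cells of scaled UMIs, and 1.20, 1.31 and 1.57 thinned to 2000, 4000 and 8000 UMIs. For CMP over GMP it was 1.78, then 1.47, 1.59, 1.62 (2000) and 1.91 (8000). For CMP over LMPP it was 0.37, then 0.68, 0.43, 0.42 (2000), 0.42 (4000) and 0.34 (8000), 0.35 with all deposited barcodes and 0.35 with doublet calls kept. Every value kept its sign.

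Between classes, counts for Sox4 at an adjusted p under 0.05 describe a pattern that bore on its choice. They are no test of that pattern and show only how the fits moved with the processing. Sox4 was past that limit in 10 of 10 pairs in the main fit. It was past the limit in 5 of 6 pairs at resolution 0.5, with doublet calls kept and with no centring of GMP libraries. These clusterings gave fewer classes. With 1 library left out the count was 9 to 10. The pair that moved was granulo-monocytic against monocyte (-0.13), which also missed the limit with no replicate block and with DESeq2 size factors. It gave -0.14 with no replicate block, -0.12 with DESeq2 size factors, -0.13 with no low-count filter, 0.067 at resolution 0.5, -0.46 at resolution 2, 0.069 with doublet calls kept, -0.086 with no centring, and -0.17 to -0.10 with 1 library left out. The replicate block pairs classes of 1 library, and every pair kept its direction without it. No paired analysis was possible because CMP and LMPP have 1 library each for the comparisons of groups.

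The genes with r of at least 0.1 numbered 126, and 68 and 215 after thinning to 2000 and 8000 UMIs, 80 with Spearman correlation and 10 as deviations from cluster means. Those with r of -0.1 or lower numbered 113, then 58, 172 and 15. Leaving out 1 library gave 105 to 139 and 103 to 123. None of the 20 named genes changed sign, but their ranks moved. Of the 10 rising genes, 9 stayed among the top 10 at 2000 UMIs and 4 at 8000 UMIs. With Spearman correlation 7 did, and as deviations from cluster means 4 did. For the 10 falling genes these numbers were 8, 9, 10 and 8. CMP and LMPP have no replicate, so the spread in all group tests comes from GMP alone.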
